A study of Mus musculus with 8 samples.

Results

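Voltage-gated calcium channels of sensory neurons, and the subunits that gabapentin and pregabalin bind, were followed through 10 genes in ribosome footprints of mouse dorsal root ganglia (DRG), where sensory neurons have their cell bodies. The genes were taken by symbol: 6 encode pore-forming α1 subunits (Cacna1a, Cacna1b, Cacna1c, Cacna1d, Cacna1e and Cacna1h), 3 encode α2δ subunits (Cacna2d1, Cacna2d2 and Cacna2d3) and 1 encodes a β subunit (Cacnb3). They are 10 of the 48315 gene symbols in the deposited tables, and all 10 had reads in each of the 8 libraries and passed the filter on low values, a mean of at least 1 CPM, which 15720 symbols passed. A footprint is the stretch of RNA that a ribosome shields from digestion. The levels are in CPM, the reads of a gene per 1000000 reads assigned to genes in its library. The study set ribosome footprints of DRG beside RNA abundance; the RNA abundance libraries were not used here, so a level does not separate how much RNA a gene had from how densely ribosomes covered it.

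The mice of both groups were wild type (WT), of the strain named SW in the labels, and given saline, and no further allele or agent is stated. They differ in the labelled sex alone, with 4 libraries labelled female and 4 labelled male, numbered 1 to 4 in each. Their age is not given in the sources used here. Nothing in the labels says that libraries came from separate animals, so p-values may measure only a technical spread between samples.

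In these channels the α1 subunit forms the pore and sets the class of current. High-voltage-activated α1 subunits are carried to the membrane and tuned by a β subunit inside the cell and an α2δ subunit on its outer face, whereas T-type channels open at low voltage and can work without them. In sensory neurons, N-type and P/Q-type channels admit the calcium that releases transmitter in the spinal cord, and gabapentin and pregabalin, used against nerve pain, bind Cacna2d1 and Cacna2d2 protein but not Cacna2d3 or Cacna2d4 protein.

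The α2δ genes are shown first at a place where the drug-binding members differ from the others. It is a run of arginine codons that holds an arginine needed for the binding of gabapentin to Cacna2d1 protein. Each line holds 51 bases of coding sequence from GENCODE M21 on the build GRCm38, read 5′ to 3′ on the strand of the gene, with 21 bases on each side of the 3 codons in capitals, which align with that run. Each window runs across an exon junction.
Cacna2d1: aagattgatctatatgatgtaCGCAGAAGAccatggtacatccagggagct
Cacna2d2: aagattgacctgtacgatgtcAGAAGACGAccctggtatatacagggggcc
Cacna2d3: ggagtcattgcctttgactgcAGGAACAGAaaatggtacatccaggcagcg
Cacna2d4: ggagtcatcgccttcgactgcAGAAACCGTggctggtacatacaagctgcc
In Cacna2d1, on chromosome 5 from 15934691 to 16374511 (plus strand), the capitals are chr5:16264314-16264322 and encode residues 239 to 241 of 1103, all arginine. In Cacna2d2, on chromosome 9 from 107399612 to 107529343 (plus strand), they are chr9:107512347-107512355 and encode residues 280 to 282 of 1157, again all arginine. In Cacna2d3, on chromosome 14 from 28904943 to 29721864 (minus strand), they are chr14:29347127-29347135 and encode residues 242 to 244 of 1091, of which the middle is asparagine. Cacna2d4, which is not among the 10 genes, reads arginine, asparagine and arginine at chr6:119267854-119267862. Over the whole coding sequence, Cacna2d2 was identical to Cacna2d1 in 56.1% of 1075 aligned residues, Cacna2d3 in 32.3% of 1026 and Cacna2d4 in 30.4% of 1038.

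Before the levels, 3 libraries have to be set apart, because their sex-linked genes went against the label. Ddx3y, a gene of the Y chromosome, reached 55.2 CPM in female 1 and 61.9 CPM in female 3, but no more than 0.138 CPM in female 2 or female 4. It was at 1.62 CPM in male 1, where Xist, the RNA of the inactive X, was at 10.6 CPM, and at 37.9 to 54.1 CPM in male 2, male 3 and male 4. Libraries are named by their label throughout, and "female" and "male" mean no more than that. Female 1 and female 3 were also the closest pair of libraries: 1.06% of their coding genes differed at p below 0.001 in a chi-square test on reads, against 9.41% to 31.8% in the other 27 pairs. Depth ran from 3697690 reads in male 1 to 12714544 in male 3. The floor, taken as 3 reads, therefore equals 0.236 to 0.811 CPM, and levels below that of their library rest on fewer reads. Protein-coding genes took 78.3% to 93.8% of reads. Markers of DRG neurons were abundant, with a summed level of 10384 to 18520 CPM for 6 pan-neuronal genes and of 2738 to 3267 CPM for 5 genes of non-peptidergic nociceptors. Muscle and spinal cord glia markers were present too and varied between libraries, and their sums are given further on beside some of the channel genes.

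Cacna2d1, the main target of gabapentin, had the most reads of the 10 genes. It was at 233, 158, 249 and 199.7 CPM in female 1 to 4, and at 201.5, 160.3, 204 and 263 CPM in male 1 to 4. Low and high libraries stood in both groups: female 2 and male 2 were lowest, and male 4 was highest. Cacna2d2, the other drug-binding gene, was at 124, 84.6, 128 and 115 CPM in female 1 to 4, and at 127, 133, 101 and 107 CPM in male 1 to 4. Female 2 was again lowest, but male 2, among the lowest for Cacna2d1, was the highest for Cacna2d2. The levels of Cacna2d1 per kilobase were therefore 1.27 times those of Cacna2d2 in male 2 and 2.58 times in male 4, with a mean ratio of 1.93 ± 0.378 (SD, n = 8). Cacna2d3, an α2δ gene whose loss in mice impairs the response to noxious heat, varied least of the 10. It was at 58.6, 49.8, 52.7 and 49.3 CPM in female 1 to 4, and at 50.8, 61.4, 52.8 and 55.3 CPM in male 1 to 4. Its highest library was 1.25 times its lowest, against 1.66 times for Cacna2d1 and 1.57 times for Cacna2d2.

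Per kilobase of coding sequence, Cacna2d1 made up 55.7% ± 4.81 (SD, n = 8) of the footprints on the 4 α2δ genes, Cacna2d2 29.5% ± 3.60 and Cacna2d3 14.8% ± 1.89. The share of Cacna2d1 was lowest in male 2, at 45.8%, and highest in male 4, at 62.4%, and it was the first of the 4 in each of the 8 libraries. The pair with the full arginine run, Cacna2d1 and Cacna2d2, held 85.2% ± 1.95 between them, from 81.9% to 87.4%. Cacna2d4, known from the retina, was near the floor, at 0.294 ± 0.411 CPM. Its highest level was 1.26 CPM in male 2, and it was at 0 in female 1 and male 1, where 3 reads would be 0.524 and 0.811 CPM.

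**Figure D1:**
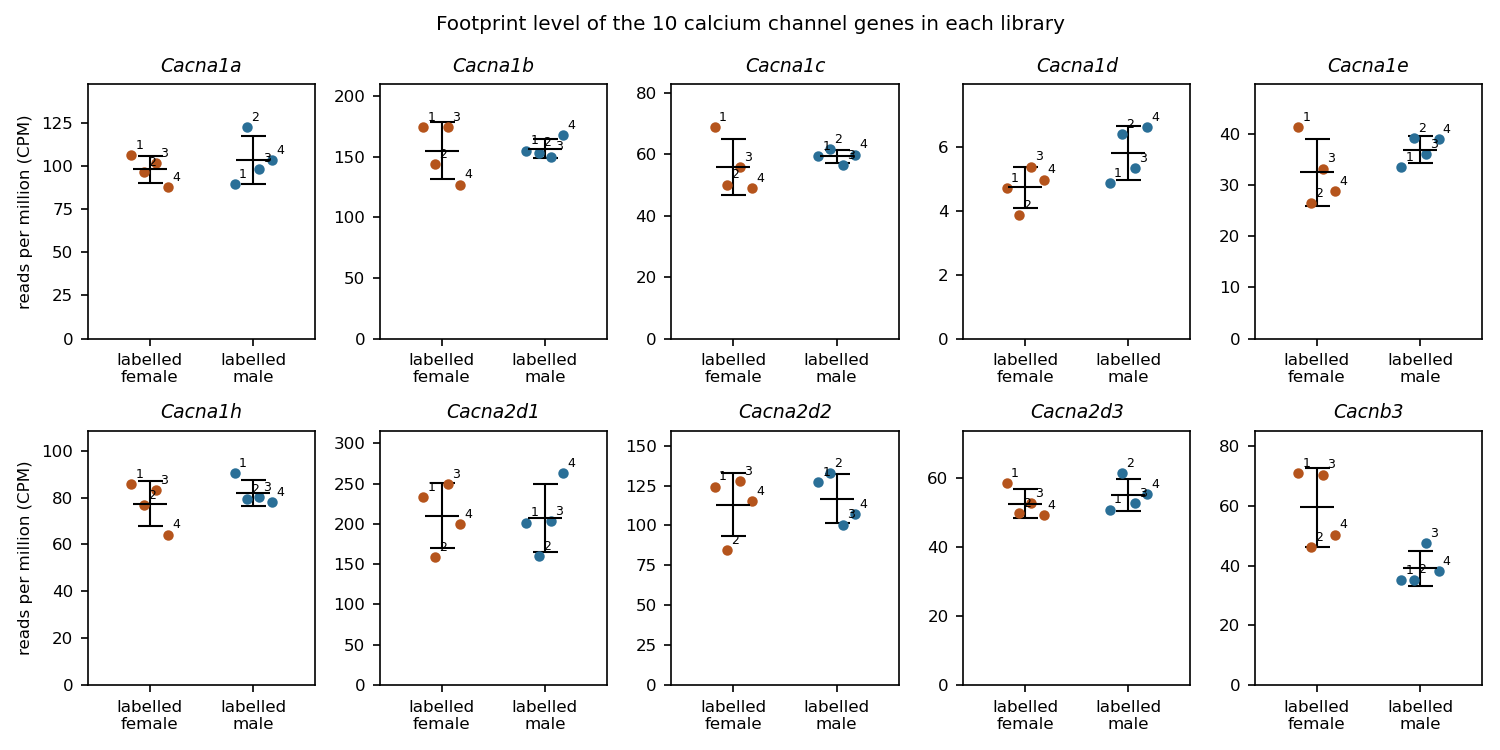
Level of each of the 10 genes in each library, in CPM, with a panel per gene. Libraries labelled female and male stand side by side, with the mean and SD of each group. The groups overlap for all 10 genes; Cacnb3 comes nearest to parting, with male 3 (47.6 CPM) above female 2 (46.0 CPM).

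Among the pore genes, Cacna1b, the N-type channel that ziconotide blocks, led. It lies on chromosome 2 from 24603887 to 24763152 (minus strand) and was at 174, 144, 174 and 127 CPM in female 1 to 4, and at 155, 153, 149.99 and 168 CPM in male 1 to 4. The 4 male libraries fell inside the span of the 4 female ones. Cacna1a, the P/Q-type channel, on chromosome 8 from 84388440 to 84640246 (plus strand), was at 106, 96.3, 102 and 87.9 CPM in female 1 to 4, and at 89.5, 123, 98.5 and 104 CPM in male 1 to 4. Its level in male 2 stood above all others. Cacna1e, the R-type channel, on chromosome 1 from 154390731 to 154884501 (minus strand), completes the Cav2 class of presynaptic channels. It was at 41.4, 26.5, 33.2 and 28.8 CPM in female 1 to 4, and at 33.5, 39.2, 36.0 and 38.9 CPM in male 1 to 4. Female 1 was highest and female 2 lowest, with the male libraries between them. The ratio of Cacna1b to Cacna1a, per kilobase, was 1.58 ± 0.163 (SD, n = 8) and above 1 in each library, from 1.27 in male 2 to 1.76 in male 1.

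The L-type genes stood far apart in level. Cacna1c, an L-type channel also central to heart and smooth muscle, on chromosome 6 from 118587240 to 119196418 (minus strand), was at 68.9, 50.1, 55.8 and 49.0 CPM in female 1 to 4, and at 59.5, 61.7, 56.5 and 59.9 CPM in male 1 to 4. As for Cacna1b, the male libraries lay within the female span. Smooth muscle markers, which could also bring Cacna1c, summed to 264 to 388 CPM over 4 genes, with none at 0, and their part in its level was not tested. Cacna1d, the L-type channel of hair cells and pacemaking cells, on chromosome 14 from 30039939 to 30491455 (minus strand), was the lowest of the 10. It was at 4.71, 3.87, 5.38 and 4.98 CPM in female 1 to 4, and at 4.87, 6.42, 5.35 and 6.64 CPM in male 1 to 4. These levels rest on 18 reads in male 1 to 68 in male 3, and the exact 95% counting interval in male 1 runs from 2.89 to 7.69 CPM. The spread between libraries, a coefficient of variation of 17.1%, was close to the 16.5% that counting alone gives. Cacna1d also shares 589 exonic bases with Chdh on the opposite strand, which stood above it at 8.14 CPM; whether the counting used strand is not given in the sources used here, so their reads may not be fully separated. For the other 9 genes, exonic overlap with another gene was absent or involved a gene of at most 2.78 CPM. Cacna1c was 10.9 ± 1.90 times Cacna1d per kilobase, from 8.85 to 14.3 times.

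Cacna1h, the T-type channel found in low-threshold mechanoreceptors and some nociceptors, lies on chromosome 17 from 25374285 to 25433783 (minus strand). It was at 85.7, 76.7, 83.1 and 64.2 CPM in female 1 to 4, and at 90.3, 79.4, 80.1 and 78.2 CPM in male 1 to 4. Apart from male 1, the male libraries lay within 2 CPM of one another. Of its T-type relatives, Cacna1i was at 9.68 ± 2.08 CPM (SD, n = 8) and Cacna1g at 6.44 ± 3.30 CPM. Per kilobase, Cacna1h exceeded Cacna1g 13.5 to 17.4 times in 7 libraries and 5.58 times in male 2. Cacna1g was at 14.4 CPM in male 2 and at 4.43 to 6.76 CPM elsewhere. In the same library the 6 spinal cord glia markers, none of them at 0, summed to 2485 CPM, against 957 to 1094 CPM in the other 7; their part in Cacna1g, or in the high Cacna1a, Cacna2d2 and Cacna2d3 of male 2, was not tested.

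Summed per kilobase over the 10 α1 genes of the mouse, Cacna1b held 32.5% ± 1.47 (SD, n = 8) of footprints, Cacna1a 20.8% ± 1.89, Cacna1h 16.4% ± 1.01, Cacna1c 12.6% ± 0.563, Cacna1e 7.40% ± 0.679 and Cacna1d 1.18% ± 0.195. The 6 genes together held 90.9% ± 2.31. By class, the Cav2 genes held 60.6% ± 2.33, the T-type genes 19.9% ± 0.867, and Cacna1c with Cacna1d 13.8% ± 0.630. The class shares thus varied little between libraries. Most of the rest was Cacna1s, the L-type channel of skeletal muscle, with 3.35% to 9.06%. Cacna1s was at 34.0, 13.7, 32.7 and 14.4 CPM in female 1 to 4, and at 35.7, 14.9, 16.9 and 12.98 CPM in male 1 to 4. It was high in female 1, female 3 and male 1, the 3 libraries set apart by their sex-linked genes. Those libraries were also the highest in the sum of skeletal muscle markers, though not in each marker: Myh4 was at 678 CPM in male 1 and 799 CPM in male 2. The 8 markers, none at 0, summed to 2864 to 8803 CPM over the female libraries and to 3335 to 6980 CPM over the male ones, with male 3 next after these 3 at 5442 CPM. Their part in the level of Cacna1s, or of Cacna2d1 and Cacnb1, which skeletal muscle also uses, was not tested.

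**Figure D2:**
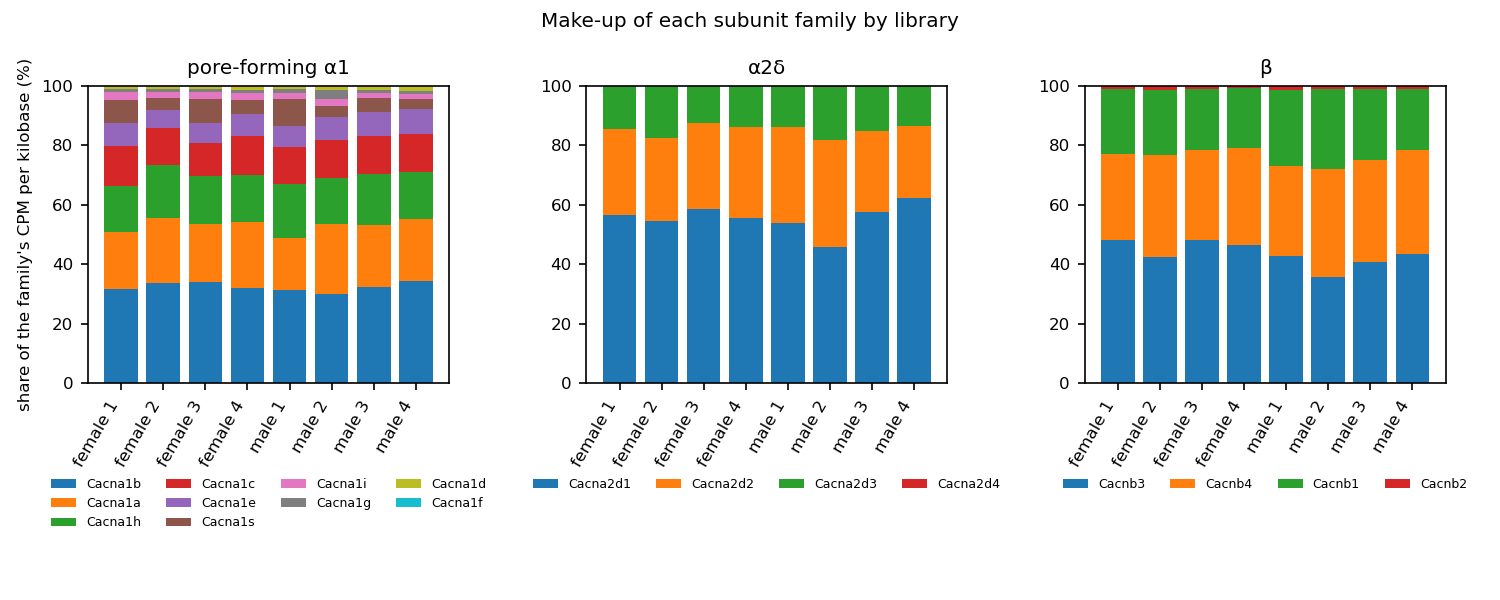
Share of footprints, in percent of the summed CPM per kilobase of coding sequence, that each gene held within the α1, α2δ and β families, drawn as stacked bars for each library. Cacna1b is the largest α1 share and Cacna2d1 the largest α2δ share in all 8 libraries, and Cacnb3 the largest β share in 7 of 8.

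Cacnb3, the β subunit gene followed here and one that mice need for normal N-type current, lies on chromosome 15 from 98630840 to 98644529 (plus strand). It was at 70.9, 46.0, 70.4 and 50.4 CPM in female 1 to 4, and at 35.2, 35.3, 47.6 and 38.0 CPM in male 1 to 4. Female 1 and female 3 stood well above the others, and the groups overlapped through male 3 alone, which was above female 2. Within each of the 4 replicate numbers the female library was the higher, but no label states what the numbers stand for. The share of all symbols for which this held was not counted, and 71.7% of all symbols had a higher mean log2 level in female libraries. The coefficient of variation of Cacnb3, 29.2%, was the highest of the 10 genes, and counting alone gives 5.41%. Among the 4 β genes it held 43.5% ± 4.24 (SD, n = 8) of footprints per kilobase, ahead of Cacnb4 with 32.8% ± 2.70 and Cacnb1 with 22.7% ± 2.56, while Cacnb2 held 1.01%. In male 2 its share was 35.7%, below that of Cacnb4. Summed over the family per kilobase of coding sequence, β footprints were 1.22 to 1.37 times α1 footprints in female libraries. In male libraries they were 0.798 to 1.22 times, with female 2 at 1.223 and male 3 at 1.215 nearly meeting. No test was made of the sum. The summed α2δ level per kilobase was 1.43 to 1.93 times the α1 level per kilobase in female libraries, and the male libraries lay within that span.

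Set in order per kilobase of coding sequence, Cacna2d1 came first with a level of 63.0 ± 11.5 CPM per kilobase (SD, n = 8). Cacnb3 followed at 33.9 ± 9.91, Cacna2d2 at 33.1 ± 4.77, Cacna1b at 22.3 ± 2.32 and Cacna2d3 at 16.4 ± 1.32 CPM per kilobase. Cacna1a stood at 14.2 ± 1.54, Cacna1h at 11.3 ± 1.08, Cacna1c at 8.65 ± 0.963, Cacna1e at 5.09 ± 0.765 and Cacna1d at 0.807 ± 0.138 CPM per kilobase. For scale, the median of the 14053 coding genes tested was 12.9 CPM per kilobase: Cacna2d1 was 4.88 times that median and above 85.3% of coding genes, and Cacna1d was 0.0625 times it and above 2.80%. Neighbours in this order were compared within libraries by a two-sided exact sign-flip permutation test on log2 levels per kilobase, adjusted over the 9 pairs. The order came from the means of these same libraries, so the higher gene of a pair was not named beforehand. The p-values measure agreement between libraries and do not cover the choice of length. In 8 of the 9 pairs the higher gene differed from the lower: 7 pairs kept their order in 8 of 8 libraries (exact p = 0.00781, the smallest that 8 libraries allow; adjusted exact p = 0.01004), with log2 differences from 0.22 for Cacna2d3 over Cacna1a to 2.66 for Cacna1e over Cacna1d. Cacna1a exceeded Cacna1h in 7 of 8 libraries, with a log2 difference of 0.33 (adjusted exact p = 0.0176). Cacnb3 and Cacna2d2 were not separated: Cacnb3 was higher in 5 of 8 libraries, with a mean log2 difference of 0.00 ± 0.44 (SD, n = 8; exact p = 0.992). The ranges over libraries, as opposed to the differences within one, overlapped in 7 of the 9 pairs, leaving apart Cacna1c over Cacna1e and Cacna1e over Cacna1d. The position of reads within genes was not examined, and dividing by whole transcripts in place of coding sequence exchanged Cacnb3 and Cacna2d2 and left the other ranks.

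**Figure D3:**
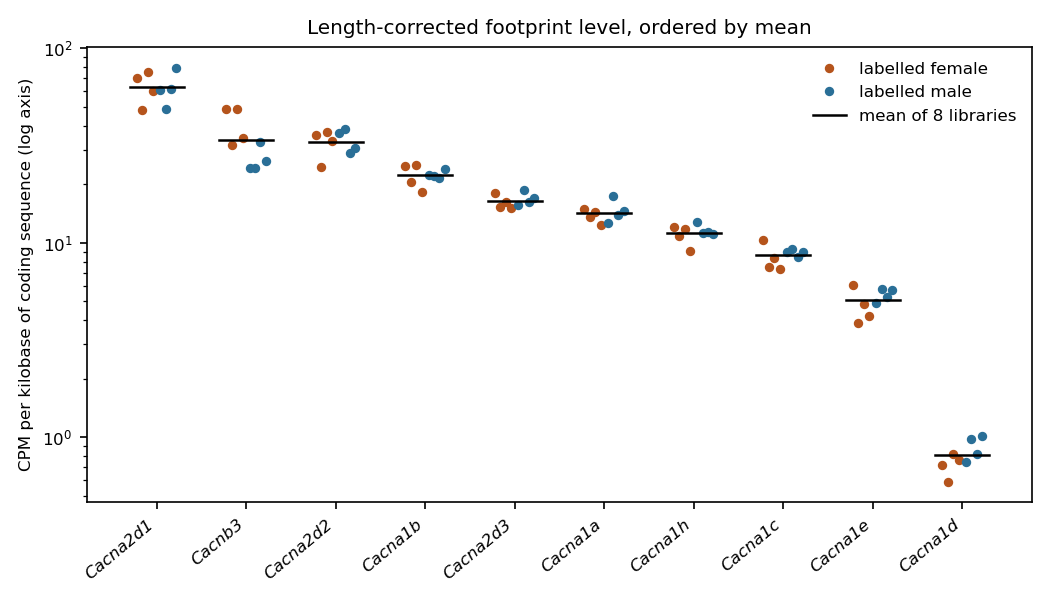
Level of the 10 genes in CPM per kilobase of coding sequence on a log axis, ordered by mean, with a point per library and the mean as a line. Levels run from 63.0 for Cacna2d1 to 0.807 for Cacna1d, and the points of Cacnb3 and Cacna2d2 lie on each other.

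Between the labelled sexes, none of the 10 genes passed the test. The comparison was fitted over all 15720 symbols with limma on log2(CPM + 1), with Benjamini-Hochberg adjustment at 0.05, and a difference is female minus male. It called 0.0% of all symbols, and 0 of the 10 genes. At an unadjusted p below 0.05 the fit held 13.4% of all symbols and 1 of the 10 genes, Cacnb3. The 4 female and 4 male libraries did not overlap for 4.55% of symbols and for 0 of the 10. In female libraries Cacnb3 averaged 59.4 ± 13.1 CPM, against 39.0 ± 5.86 CPM in male ones (SD, n = 4 each), a log2 difference of 0.58 (SE 0.17, 95% interval 0.20 to 0.96; adjusted p = 0.372 in limma), or 1.49-fold. Its highest levels, 70.9 and 70.4 CPM, were those of female 1 and female 3, the closest pair of libraries, which count separately here. With that pair averaged into 1 library, the difference was 0.49 (adjusted p = 0.714 in limma). The difference was 0.26 (adjusted p = 0.9995 in limma) without female 1, female 3 and male 1. Because the median difference of all symbols was itself 0.15, the difference of Cacnb3 relative to that median was 0.43. With the replicate number as a block, its adjusted p was 0.136 in limma. Pan-neuronal markers were higher in female libraries for 6 of 6 genes, where 71.7% of all symbols were, with sums of 15152 to 18520 CPM against 10384 to 17511 CPM. Markers of neuron classes did not all share that direction: 2 of 5 for non-peptidergic nociceptors, 3 of 4 for peptidergic nociceptors, 1 of 5 for myelinated mechanoreceptors and proprioceptors and 3 of 3 for C low-threshold mechanoreceptors were higher in female libraries. The part of these markers in the difference of Cacnb3 was not tested. In whole ganglia, fewer cells of a type and less RNA per cell cannot be told apart.

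The other 9 genes lay nearer to 0. Differences ran from -0.25 for Cacna1d (95% interval -0.61 to 0.12; adjusted p = 0.477 in limma) to 0.02 for Cacna2d1 (-0.37 to 0.42; adjusted p = 0.964 in limma). The N-type gene Cacna1b differed by -0.03 (-0.31 to 0.26) and the P/Q-type gene Cacna1a by -0.07 (-0.35 to 0.21). The second drug-binding gene, Cacna2d2, differed by -0.06 (-0.40 to 0.29) and Cacna2d3 by -0.06 (-0.32 to 0.19). For Cacna1c, Cacna1e and Cacna1h the differences were -0.10, -0.20 and -0.09. As a fold, the 95% interval of Cacna2d1 ran from 0.772 to 1.34, so these libraries leave room for changes of that size. In all, 8 of the 10 genes were lower in female libraries, where 28.3% of all symbols were, and the median of the 10 was -0.07 beside 0.15 over all symbols. Cacna2d1 turned below 0 when levels were rescaled to coding genes (-0.08) or by median ratios (-0.14). With the replicate number as a block in the fit, 0.172% of symbols and 0 of the 10 genes passed, and without female 1, female 3 and male 1, 0.0317% of symbols and 0 of the 10.

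**Figure D4:**
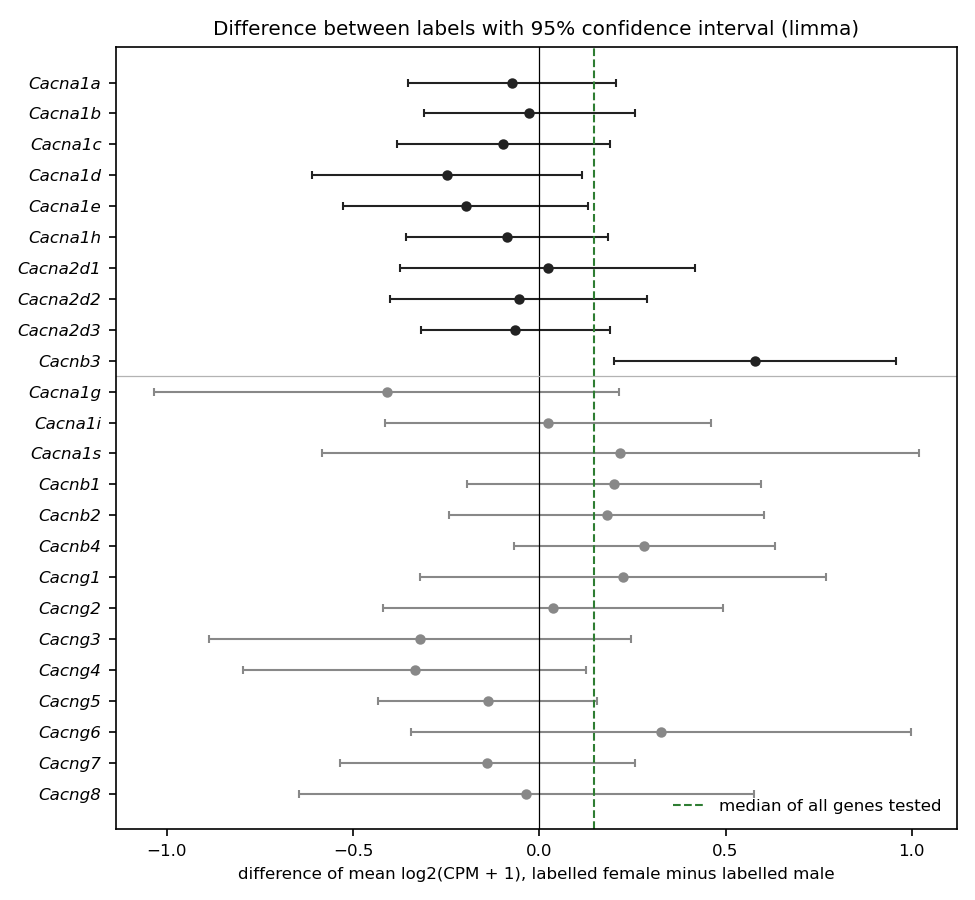
Labelled female minus labelled male in mean log2(CPM + 1) for each of the 10 genes and for the other channel subunit genes that passed the filter. Bars are 95% intervals from limma. The dashed line marks the median of all symbols tested, 0.15; only the interval of Cacnb3, 0.20 to 0.96, lies wholly above 0.

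The 10 genes had a median coefficient of variation between libraries of 12.8%, beside 20.49% over all symbols tested. Of the 10, 9 were below that value, and the range was from 8.03% for Cacna2d3 to 29.2% for Cacnb3. The comparison was not matched for level, and the symbols tested reach down to a mean of 1 CPM, where counting adds more spread. Counting alone gives 30.9% for Cacnb2, at 1.51 CPM, and 2.63% for Cacna2d1. Likeness of pattern was measured as the root mean square difference of log2(CPM + 1), centred on the mean of the gene, over the 8 libraries. The closest pair among the 10 was Cacna1a and Cacna2d3, at 0.059 log2 units, and the farthest was Cacna1d and Cacnb3, at 0.475. Among 6628 coding genes that averaged 20 CPM or more, the closest to Cacna1b were Piezo2, a touch channel (0.050), Bcam, a laminin receptor (0.052), and Ret, a growth factor receptor (0.063), where the median gene stood at 0.250. The closest to Cacna2d1 were Dst, a cytoskeletal linker (0.068), Itga7, an integrin (0.081), and Col28a1, a collagen (0.097), against a median of 0.323. The closest to Cacnb3 were Usp32, a ubiquitin protease (0.064), Fxr2, an RNA-binding protein (0.065), and Jakmip1 (0.066), against 0.295.

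**Figure D5:**
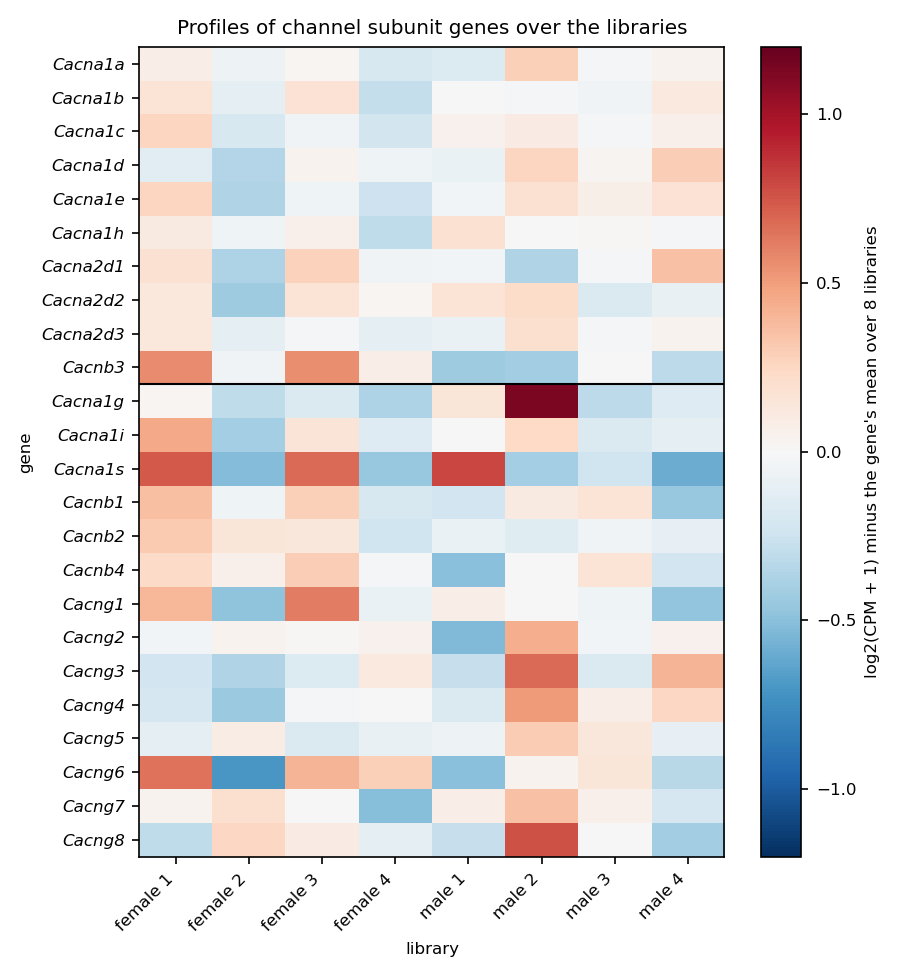
Log2(CPM + 1) of the 10 genes and of the other channel subunit genes that passed the filter, centred on the mean of each gene, by library. Cacnb3 is highest in female 1 and female 3 and lowest in male 1, and Cacna2d1 is highest in male 4.

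The remaining 16 subunit genes of the family gave 0 calls. Of them, 14 passed the filter, 8 higher and 6 lower in female libraries, where 71.7% of all symbols were higher. Their median difference was 0.03, beside 0.15 over all symbols. At an unadjusted p below 0.05 in limma there were 0 of the 14, beside 13.4% of all symbols. Among the γ genes, whose products mostly steer AMPA receptors, Cacng5 and Cacng7 led at 22.7 ± 2.71 and 19.5 ± 3.46 CPM (SD, n = 8). Cacnb4 and Cacnb1, which pair with the same pores as Cacnb3, were at 38.9 ± 6.78 and 35.2 ± 6.82 CPM. Their differences, 0.28 and 0.20, had the sign of that of Cacnb3, with adjusted p = 0.417 and 0.593 in limma.

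Of 21 genes for partners and regulators of the channels, 0 were called. In female libraries 14 were higher and 7 lower, where 71.7% of all symbols were higher. The median was 0.25, beside 0.15 over all symbols. At an unadjusted p below 0.05 there were 4 of 21, beside 13.4% of all symbols, and the 4 were higher in female libraries, as were 1877 of the 2099 symbols below that p: Rimbp2, a scaffold that ties channels to release sites (0.54), Fmr1, whose protein binds N-type channels (0.39), Stac2, an adaptor of L-type channels (0.38), and Rims2, an active zone protein (0.38). Each had an adjusted p of 0.372 in limma. The groups did not overlap for 2 of the 21, Rimbp2 and Stac2, beside 4.55% of all symbols. The thrombospondins, matrix proteins that bind Cacna2d1 protein, were at 206 ± 33.9 CPM for Thbs1, 165 ± 19.98 CPM for Thbs4 and 118 ± 25.03 CPM for Thbs2, and Lrp1, a receptor that carries α2δ proteins, was at 1270 ± 221 CPM (SD, n = 8). Their differences ran from -0.25 for Lrp1 to -0.04 for Thbs1. The 2 genes of the transporter that brings gabapentin into cells and across the blood-brain barrier were both measured. Slc3a2, its heavy chain, was at 363, 341, 344 and 361 CPM in female 1 to 4, and at 424, 441, 392 and 376 CPM in male 1 to 4, so that the groups did not overlap. The difference was -0.21 (SE 0.10; adjusted p = 0.387 in limma). Slc7a5, the light chain that moves the drug, was at 79.2 ± 13.6 CPM, with a difference of -0.11 (adjusted p = 0.748 in limma) and overlapping groups.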

How the data were processed

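The authors deposited 1 table per labelled sex, named as TPM. Their values are CPM: each deposited column sums to 1000000, and 95.7% to 96.5% of values above 0 are a whole number of steps of 1 size per library, to within 0.01 of a step. Depth is that step's inverse; no count model was fitted. Columns isolated the ribosome-bound RNA, per the labels' protocols, which was depleted of ribosomal RNA and selected at 28 to 34 nt. Per the submitters' processing notes, TopHat2 2.1.1, Cufflinks 2.2.1, FastQC 0.11.5 and Bowtie2 2.2.9 were used, and mm10 and GRCm38.p4 were the builds; how each served, which annotation was taken and how strand and multiply mapped reads were handled is not given in the sources used here.

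Rows of 1 symbol were summed. Isoforms cannot be told apart. Positions and coding lengths (longest coding sequence) came from GENCODE M21, which held 99.2% of gene identifiers. The fit used limma 3.58.1 in R 4.3.3 with an intensity trend and two-sided tests. A check on simulated data drew each library independently, so it does not cover the likeness of female 1 and female 3. Differences understate changes of low genes. Counting intervals are exact Poisson intervals and cover counting error only, as do floors. Chi-square tests between libraries took coding genes holding 50 reads or more over both. Other steps ran in Python 3.11.15 with scipy 1.17.1, matplotlib 3.10.9, pandas 2.3.3 and numpy 2.4.6.

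The 10 genes, the lists and the tests were chosen with earlier results of these data known. Named were all 10 genes, all genes of fixed lists as counts with examples, and the 3 genes of nearest pattern to the most abundant gene of each role. Deviations from the group means correlated between same-numbered libraries at 0.288, 0.492, 0.531 and 0.592 for numbers 1 to 4, all above the required 0.1. The numbers were therefore taken to pair the libraries in an alternative fit, with the number as a block. The main fit held no block, so its differences and adjusted p-values do not use the pairing. The pairing rests on the data alone, since no label states what the numbers stand for. Female 1 correlated best with male 3, at 0.324. Alternatives changed the pseudocount, filter, scaling, weights, block, length and libraries.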

Additional observations from a re-analysis of the deposited data

Results flagged for a closer look

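Cacna1h, the T-type channel gene, was at 90.3 CPM in male 1, apart from the other male libraries at 78.2 to 80.1 CPM. The gap to its nearest neighbour was 0.836 of the range of the 4 libraries. This was 1 of 48 sets of 4 libraries examined for such a gap, and chance alone marks about 1 in 20. Male 1 is the shallowest library and one of the 3 set apart by their sex-linked genes; the part of either in this value was not tested.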

How the results depend on the processing

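None of the 10 genes passed the threshold under any of 16 alternatives, and 0 symbols were called in all but 2: the replicate block gave 27, of which 10 were higher in female libraries, and leaving out the 3 libraries against their label gave 5. The replicate block changed no call of the 10 genes. Leaving out 1 library at a time gave 0 calls each time. Cacnb3 was above 0 throughout, from 0.26 to 0.75, with adjusted p in limma from 0.0623 (sample weights) to 0.9995. Cacna1c, Cacna1d, Cacna1e and Cacna2d3 stayed below 0 under all 16. The other 5 genes changed sign under some, and the cause was not tested. With sample weights Cacna1b was at 0.0698, Cacna1h at 0.013 and Cacna2d2 at 0.112. Cacna2d1 was at -0.0768 over coding genes alone, at -0.142 with median-ratio scaling, at -0.202 without the 3 libraries and at -0.0502 with female 1 and female 3 averaged. Leaving out 1 library at a time took Cacna1a from -0.140 to 0.0108, Cacna1b from -0.0882 to 0.0638, Cacna2d1 from -0.0928 to 0.151 and Cacna2d2 from -0.125 to 0.076. Median-ratio scaling moved the median of all symbols from 0.15 to -4e-04 and the share higher in female libraries from 71.7% to 50%. In the order per kilobase, 8 of 9 pairs differed under each other length and with any 1 library left out. Without the 3 libraries it was 0 of 9, because 5 libraries allow no exact p below 0.0625. Some margins shrank with the length. Per whole transcript, Cacna1b exceeded Cacna2d3 in 6 of 8 libraries (log2 difference 0.13, adjusted exact p = 0.044 in the sign-flip test). Cacna2d2 exceeded Cacna1b in 7 of 8, and the other pairs that differed kept their order in 8 of 8. With the union of coding exons, the log2 difference of Cacna2d3 over Cacna1a was 0.10 in place of 0.22. Depth limits Cacna1d, with 18 to 68 reads, and Cacna2d4.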

Other observations

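Beyond the channels themselves, genes that release, pump and exchange calcium were measured in full. Of 20 such genes, 8 were higher and 12 lower in female libraries, where 71.7% of all symbols were higher. None passed limma's adjusted test or an unadjusted p below 0.05, beside 0.0% and 13.4% of all symbols. Their median difference was -0.02, beside 0.15 over all symbols. Among the inositol trisphosphate receptors, which release calcium from stores, Itpr3 led at 267 ± 19.9 CPM (SD, n = 8), with Itpr1 at 44.2 ± 3.44 and Itpr2 at 33.6 ± 6.55 CPM. Ryr2, a ryanodine receptor of heart and neurons, was steady at 113 ± 13.5 CPM. Ryr1, the ryanodine receptor of skeletal muscle, ranged from 56.4 CPM in female 2 to 207 CPM in female 1. It was highest in female 1, female 3 and male 1, as were Cacna1s and the sum of the skeletal muscle markers. Atp2a1, the calcium pump of fast muscle, ranged from 502 to 1610 CPM, while Atp2a2, its widely expressed relative, was at 741 ± 82.3 CPM. The part of muscle RNA in these levels was not tested. Of the plasma membrane calcium pumps, Atp2b2 and Atp2b1 were at 261 ± 30.7 and 227 ± 32.4 CPM, and Atp2b3 and Atp2b4 at 129 ± 13.1 and 127 ± 10.5 CPM.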
